A study of Mus musculus with 4 samples.

Results

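The late cornified envelope (Lce) genes and the structural precursors and crosslinking enzymes of the cornified envelope were examined in RNA sequencing of mouse epidermal keratinocytes. The 32 members were taken by symbol from the deposited table, out of 45803 symbols: 14 Lce1 genes, 6 Lce3 genes, 9 genes of precursors and associated proteins (Lor, Ivl, Evpl, Ppl, Cnfn, Cdsn, Kprp, Scel and Krt80) and 3 transglutaminase genes (Tgm1, Tgm3 and Tgm5). All 32 symbols were found, and the values of their 38 transcript rows were summed per symbol. The keratinocytes came from the epidermis of untreated newborn mice at postnatal day 0. The 2 control libraries have the genotype K14Cre,Mettl14F/+ and the 2 conditional knockout (cKO) libraries K14Cre,Mettl14F/F, so both groups carry a Cre recombinase transgene under the keratin 14 promoter and differ in whether both Mettl14 alleles are floxed. Mettl14 encodes a subunit of the complex that writes N6-methyladenosine on RNA. The control thus carries a floxed allele as well and is not wild type, although the table names its columns WT. Cre driven by this promoter is made in basal cells, whereas the envelope genes are expressed in their suprabasal descendants. The sources used here give neither strain nor pooling of animals. Whether each library is a separate animal is not stated, so each p-value reflects the spread among these libraries alone, part of which may be technical.

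The cornified envelope is the insoluble protein shell that replaces the plasma membrane of a keratinocyte as it leaves the granular layer. Envoplakin, periplakin and involucrin form its first scaffold under the membrane, and loricrin, small proline-rich proteins and the small cysteine-rich Lce proteins are added later as reinforcement. Transglutaminases join these proteins by bonds between glutamine and lysine side chains, and corneodesmosin holds the finished corneocytes together at modified desmosomes. The Lce genes lie with Lor, Ivl, Kprp and the small proline-rich and filaggrin family genes in a cluster called the epidermal differentiation complex.

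The Lce1 and Lce3 genes are neighbours on mouse chromosome 3 (GRCm38). The 14 Lce1 genes lie between positions 92646535 and 93019060, 13 of them on the minus strand, and the 6 Lce3 genes between 92925287 and 92993426. Each main transcript has 2 exons, with a length of 647 to 925 nt for Lce1 and 491 to 611 nt for Lce3. Because the Lce1 genes had nearly parallel values, sequences before their starts are shown. Beside them stand those of Lce3c, which had the same order of libraries, and of Lor, Ivl and Tgm3, which did not. RefSeq (GRCm38.p6) gave a promoter for 27 of the 32 members, all but Lce1f, Evpl, Ppl, Kprp and Krt80. The 150 bases before the annotated start are printed 5′ to 3′ on the gene's strand. Capitals mark ATAAAAG (searched on the gene's strand), TGANTCA, the AP-1 recognition sequence (both strands), and a run of 12 bases for each Lce subgroup, taken as the one held by most of its promoters (both strands). The run is ACTGTCTCACAG for Lce1, the first in alphabetical order of 5 tied runs, and CAAGGATAAAAG for Lce3, the first of 2, which contains ATAAAAG.
Lce1a1 (chr3:92648308-92648457, minus strand): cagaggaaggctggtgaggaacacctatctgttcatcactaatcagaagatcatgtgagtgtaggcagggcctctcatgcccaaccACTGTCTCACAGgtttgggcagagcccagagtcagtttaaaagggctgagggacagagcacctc
Lce1a2 (chr3:92670316-92670465, minus strand): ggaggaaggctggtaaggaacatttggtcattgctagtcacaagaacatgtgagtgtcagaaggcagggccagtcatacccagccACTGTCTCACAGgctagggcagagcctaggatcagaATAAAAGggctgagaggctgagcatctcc
Lce1i (chr3:92778900-92779049, minus strand): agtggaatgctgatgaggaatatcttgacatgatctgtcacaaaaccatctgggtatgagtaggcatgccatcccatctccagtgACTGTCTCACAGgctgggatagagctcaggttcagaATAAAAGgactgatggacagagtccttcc
Lce1m (chr3:93019062-93019211, minus strand): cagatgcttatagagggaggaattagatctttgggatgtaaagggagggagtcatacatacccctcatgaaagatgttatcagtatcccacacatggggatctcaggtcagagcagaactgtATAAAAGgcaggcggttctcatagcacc
Lce3c (chr3:92944336-92944485, plus strand): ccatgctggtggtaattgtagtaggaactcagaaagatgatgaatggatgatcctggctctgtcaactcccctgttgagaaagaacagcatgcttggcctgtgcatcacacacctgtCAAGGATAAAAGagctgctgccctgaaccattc
Lor (chr3:92083143-92083292, minus strand): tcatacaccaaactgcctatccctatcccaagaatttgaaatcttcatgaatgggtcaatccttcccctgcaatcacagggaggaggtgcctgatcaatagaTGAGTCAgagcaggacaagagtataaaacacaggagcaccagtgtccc
Ivl (chr3:92573736-92573885, minus strand): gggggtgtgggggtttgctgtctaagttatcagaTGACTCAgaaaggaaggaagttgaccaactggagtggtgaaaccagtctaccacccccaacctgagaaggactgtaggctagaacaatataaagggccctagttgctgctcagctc
Tgm3 (chr2:130012190-130012339, plus strand): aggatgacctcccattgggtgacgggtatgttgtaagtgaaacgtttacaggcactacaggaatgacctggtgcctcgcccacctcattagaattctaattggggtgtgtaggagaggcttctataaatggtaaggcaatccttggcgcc

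The TATA-like ATAAAAG was found in 10 of 13 Lce1 promoters, starting 28 or 29 bases before the start, and in 5 of 6 Lce3 promoters, 28 to 30 bases before it. It was in none of 5 precursor and 3 transglutaminase promoters and in 2.01% of all 32851 promoter windows of the same length. Only this exact string was searched, and related spellings were not counted. The printed windows of Lor, Ivl and Tgm3 each hold TATAAA at a similar distance from the start. The counts of ATAAAAG thus compare a spelling and do not show that these promoters lack such an element. The Lce1 run stood in 7 Lce1 promoters, 64 or 65 bases before the start, and in 8 windows of all (0.0244%), those 7 included. The Lce3 run stood in 4 Lce3 promoters and in 5 windows of all (0.0152%). Both runs were chosen on these promoters, and ATAAAAG is part of the Lce3 run, so the counts of the runs and of ATAAAAG in them are descriptions. The AP-1 sequence was found before Lor, Ivl and Scel, in 4.24% of all windows, and in no Lce window. AACCNGTT, a recognition sequence of grainyhead-like factors, was in none of the member windows and in 1.05% of all. Identity between 2 Lce1 windows, counted as 100% less the edit distance over 150 bases, had a median of 64.7% (46.7% to 86.7% over 78 pairs), against 49.3% between an Lce1 and an Lce3 window. Identity between unrelated windows was not measured, so these percentages have no baseline to be read against. The sequence matches describe letters only and do not show binding.

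Values are FPKM, reads or fragments scaled to transcript length and library size, and differences are given as cKO minus control on log2(FPKM + 1), where low genes appear to differ less than they do. The reads implied by low values came to between 16895600 and 25695400 per library. Mettl14 measured 7.00 and 6.40 FPKM in the controls, numbers 1 and 2, against 5.89 and 3.79 in the cKO libraries. Its log2 difference was -0.42 ± 0.26 SE and did not pass the test (limma adjusted p = 0.959). The libraries stood apart by replicate number: mitochondrial genes took 4.15% of implied reads in control 1 and 2.95% in cKO 1, against 1.65% in control 2 and 1.16% in cKO 2. The labelled cell type was checked by its markers. Krt14 and Krt5, the basal keratins, summed with Krt15 and Col17a1 to 3654 and 4743 FPKM in control, against 2310 and 3666 in cKO. The spinous markers Krt10, Krtdap and Sbsn summed to 20581 and 9625 in control, against 17598 and 10442 in cKO, while Krt1, the remaining marker of that list, was listed at 0 in every library. Since Krt1 is a major suprabasal keratin, a 0 is reported below only as listed at 0. Hair follicle markers (5 of 5 reaching 1 FPKM) summed to 148 and 370 in control, against 177 and 493 in cKO, so they followed the replicate number. Melanocyte markers (4 of 4) summed to between 360 and 465. Fibroblast markers (5 of 5) summed to between 82.4 and 113, and Langerhans and T cell markers (4 of 4) to 41.6 and 29.7 in control, against 21.7 and 13.9 in cKO. None of 3 endothelial markers and 1 of 3 muscle markers reached 1 FPKM. The part of these marker levels in the differences below was not tested.

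The study compared cKO with control, and no member passed the test of genotype alone, with no term for the replicate number. Of the 32 members, 27 reached 1 FPKM in 2 or more libraries and were tested among 13817 genes. With limma's moderated test, 0 of these 27 had an adjusted p under 0.05, as had 0% of all genes tested in the direction higher in cKO and 0% in the direction lower. At an unadjusted p under 0.05 there was 1 member, Tgm3, among 454 genes higher in cKO (3.29%) and 232 lower (1.68%) over the whole table. limma-voom on implied reads also called 0 members and 0 genes. The smallest adjusted p among the members was 0.959. Both cKO libraries lay above both control libraries for 4 members, Evpl, Krt80, Tgm3 and Tgm5, against 16.2% of all genes tested, and below both for Cnfn, against 16.6%. Within each replicate number, 21 of the 27 were higher in cKO than in the control of the same number in both cases, against 31.8% of all genes tested, and 1, Cnfn, was lower in both, against 37.6%. The median log2 difference was 0.54 over the 27 members and -0.03 over all genes tested. In bulk RNA, fewer cells of a type and less RNA per cell cannot be told apart.

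The Lce1 genes encode small proteins rich in cysteine and glycine that are added late to the inner face of the envelope. All 14 were measured in every library, from 6.25 FPKM (Lce1k, control 1) to 189 FPKM (Lce1a1, cKO 2), on 71.9 to 3969 implied reads. Lce1a1 measured 28.2 and 123 FPKM in the controls, numbers 1 and 2, against 59.1 and 189 in the cKO libraries. The cKO library lay above the control of the same number, but control 2 lay above cKO 1, so the groups overlapped. Its log2 difference was 0.83 ± 0.81 (SE, n = 2 per group, limma adjusted p = 0.959), with 1.04 within number 1 and 0.62 within number 2. Lce1m, at the far end of the cluster, measured 31.1 and 174 in control, against 56.8 and 177 in cKO. Its libraries numbered 1 differed 1.83-fold between genotypes and its libraries numbered 2 only 1.02-fold. Lce1l, with the largest difference of the group, measured 8.76 and 28.1 in control, against 20.3 and 42.5 in cKO (0.85 ± 0.59, adjusted p = 0.959). Lce1k, the lowest of the group in every library, measured 6.25 and 13.98 in control, against 8.30 and 20.8 in cKO.

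The other Lce1 genes had the same order of libraries. Lce1a2 measured 26.3 and 114 FPKM in control, against 51.4 and 150 in cKO. Lce1b measured 24.2 and 99.3 in control, against 38.7 and 127 in cKO. Lce1c measured 19.4 and 94.3 in control, against 32.9 and 139 in cKO. In each of these the lowest library was control 1 and the highest cKO 2. Lce1d measured 18.5 and 68.6 in control, against 32.6 and 91.1 in cKO. Lce1i measured 19.8 and 87.2 in control, against 41.1 and 123 in cKO. Lce1f measured 14.6 and 61.0 in control, against 27.2 and 74.0 in cKO. These lay in the middle of the group by level. Lce1g measured 12.3 and 53.6 in control, against 26.5 and 75.3 in cKO. Lce1e measured 10.8 and 55.5 in control, against 21.8 and 68.6 in cKO. Lce1h measured 12.3 and 46.2 in control, against 20.4 and 66.8 in cKO. Lce1j, listed above 0 only for its transcript with 2 exons, measured 9.01 and 33.4 in control, against 16.8 and 40.0 in cKO. For each of the 14 genes, the order from low to high was control 1, cKO 1, control 2, cKO 2.

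**Figure D1:**
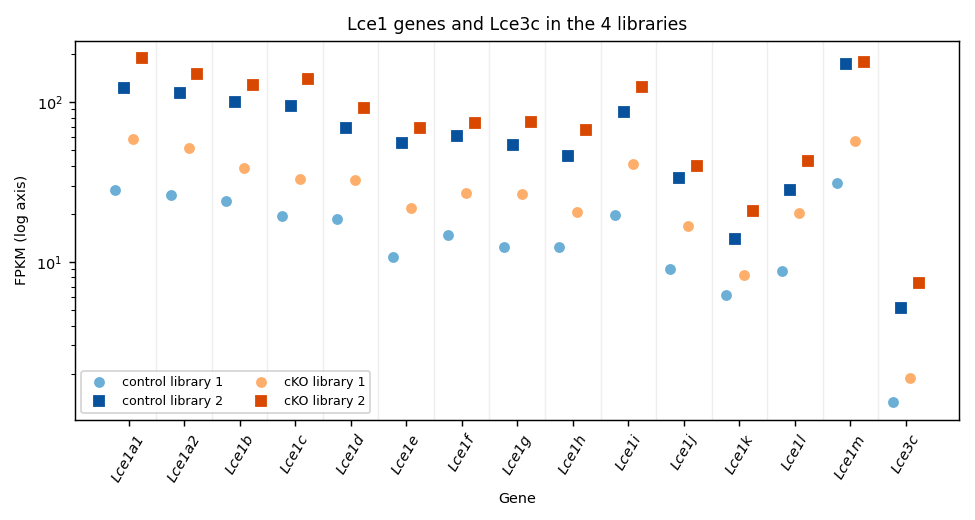
FPKM on a log axis of the 14 Lce1 genes and Lce3c in each library, with controls in blue, cKO in orange, circles for replicate number 1 and squares for number 2. For every gene shown both squares lie above both circles, and within each number the cKO point lies above the control point.

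Summed over the 14 genes, Lce1 RNA came to 241 and 1051 FPKM in the controls, against 454 and 1385 in the cKO libraries. The sum was 1.88-fold higher in cKO within number 1 and 1.32-fold within number 2. Between replicate numbers it was 4.35-fold higher in control 2 than in control 1 and 3.05-fold higher in cKO 2 than in cKO 1, so the difference between numbers was larger than that between genotypes. The median log2 difference between genotypes was 0.62, with 0.85 within number 1 and 0.44 within number 2, and 13 of the 14 genes had the larger difference within number 1. The median of number 2 minus number 1 was 1.78 for Lce1 against 0.08 for all genes tested. For 13 of the 27 tested members, 11 of them Lce1 genes with Lce3c and Kprp, both libraries numbered 2 had at least 2 times the FPKM of both libraries numbered 1, against 0.876% of all genes tested; this threshold was chosen after the values were seen. With control replicate 1 left out the median Lce1 difference between genotypes turned to -0.34, and with cKO replicate 2 left out to -0.14. It was 1.40 without cKO replicate 1 and 1.65 without control replicate 2. In the latter fit 6 Lce1 genes and Kprp passed as higher in cKO, among 25 of 13503 genes called higher (0.185%) and 12 called lower (0.0889%). The direction over these fits thus depended on which libraries were compared. Each of them sets a lone library of 1 number against both numbers of the other group, so the difference between numbers enters the result. Within each number all 14 genes were higher in cKO, as were 31.8% of all genes tested. The labels do not say what the replicate number marks. Hair follicle markers had a median of 1.41 for number 2 minus number 1, in the same direction as Lce1. Basal markers had 0.59 by number, and spinous markers -1.24, in the opposite direction. By genotype, basal markers were lower in cKO within both numbers (4 of 4, median -0.60), against 37.6% of all genes tested.

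The 14 genes kept nearly the same proportions to each other in every library. Lce1m and Lce1a1 were the highest pair throughout, with Lce1m at 12.9% and 16.5% of the Lce1 sum in control, against 12.5% and 12.8% in cKO, and Lce1a1 at 11.7% and 11.7% in control, against 13.03% and 13.6% in cKO. Lce1m was thus ahead of Lce1a1 in both controls and behind it in both cKO libraries, and this reversal was not tested. Lce1a2 was the third in all 4, and Lce1k made up between 1.33% and 2.59%. Spearman's rho of the 14 levels between any 2 libraries was 0.969 to 0.982, as a description of genes that share sequence and libraries. Of the 100 nt windows of the Lce1 transcripts, between 0% and 4.90% also occurred in a transcript of another gene, and of the 50 nt windows between 0% (Lce1m) and 27.1% (Lce1i). Reads from such windows may have been split or dropped by the authors' counting, so differences between single Lce1 genes are uncertain by that share; Lce1m shared none at either length.

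Other genes with the transcript length and exon number of Lce1 also tended to be higher in cKO. The 61 other protein-coding genes tested with 2 exons and a main transcript of 600 to 1000 nt had a median genotype difference of 0.57. It was 0.59 within number 1 and 0.59 within number 2, against 0.62 for Lce1, with 0.85 and 0.44 within the numbers. Without other listed genes of the epidermal differentiation complex, 56 such genes had a median of 0.49. Within both numbers 35 were higher and 7 lower, against 31.8% and 37.6% of all genes tested. All 665 protein-coding genes of that length that are no members had a median of 0.15. Genes with 2 exons and other lengths were not summarised. The members with 2 exons and longer transcripts had 0.10 (Lor), -0.07 (Ivl), 0.10 (Cdsn) and 0.62 (Kprp). The part of gene structure in the Lce1 difference was not tested. The same 61 genes had a median of 0.36 for number 2 minus number 1, below every Lce1 gene (1.14 to 2.14).

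The Lce3 genes, known from human skin as genes switched on after barrier injury and in psoriasis, were near the limit of detection. Lce3c measured 1.32 and 5.12 FPKM in control, against 1.88 and 7.34 in cKO, on 12.99 implied reads in control 1 and 107 in cKO 2. It had the same order of libraries as Lce1, with a log2 difference of 0.38 ± 0.65 (limma adjusted p = 0.964). Its direction turned without control replicate 1 (-0.32) and without cKO replicate 2 (-0.39). Lce3e was listed at 0 and 0.07 FPKM in control, against 0 and 1.54 in cKO, the last on 24.0 implied reads. Lce3f was listed at 0 and 0.07 in control, against 0.48 and 0.89 in cKO. Both were highest in cKO 2, and only Lce3f was above 0 in both cKO libraries. Lce3d was listed at 0 and 0.44 in control, against 0 and 0.79 in cKO. Lce3a was listed at 0 except for 0.14 in cKO 2, and Lce3b at 0 in all 4. These 5 genes did not reach the minimum level and were not tested. Their sequences overlap: 35.6% of the 100 nt windows of Lce3e were also in Lce3f, so reads of the pair may be split or dropped.

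The structural precursors did not share the pattern of Lce1, apart from Kprp. Their median log2 difference was 0.10, with 0.09 within number 1 and -0.02 within number 2. Within both numbers 3 of the 9 were higher and 1 lower, against 31.8% and 37.6% of all genes tested. Involucrin (Ivl), an early scaffold protein, measured 171 and 90.1 FPKM in control, against 181 and 76.5 in cKO. It was lower in the libraries numbered 2, the opposite of Lce1, and nearly equal between genotypes within number 1 (-0.07 ± 0.51 over all, adjusted p = 0.991). Loricrin (Lor), the main reinforcing protein, measured 105 and 134 in control, against 125 and 128 in cKO (0.10 ± 0.25, adjusted p = 0.973). Its cKO values lay between the 2 controls. Envoplakin (Evpl), a plakin of the early scaffold, measured 121 and 115 in control, against 137 and 148 in cKO, or 118 ± 4.05 against 143 ± 7.56 (SD, n = 2 each). The groups did not overlap, with cKO above, as for 16.2% of all genes tested. The log2 difference was 0.27 ± 0.23 (limma adjusted p = 0.959), between 0.22 and 0.33 when 1 library was left out. Periplakin (Ppl), its partner, measured 204 and 177 in control, against 208 and 174 in cKO, the most even member between genotypes (0.00 ± 0.26).

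Sciellin (Scel), a precursor with a LIM domain, measured 83.8 and 58.6 FPKM in control, against 88.7 and 44.4 in cKO. Corneodesmosin (Cdsn) measured 94.2 and 47.0 in control, against 92.2 and 55.6 in cKO. Like involucrin, both were lower in the libraries numbered 2 in either genotype. Cornifelin (Cnfn) measured 27.4 and 35.2 in control, against 26.2 and 26.3 in cKO. Both cKO libraries lay below both controls, as for 16.6% of all genes tested. Its difference of -0.24 ± 0.22 (adjusted p = 0.959) came mainly from control 2, and was -0.06 without control replicate 2. Keratin 80 (Krt80), a type II keratin of differentiating epithelia, measured 59.0 and 74.6 in control, against 77.9 and 85.4 in cKO. Its groups did not overlap, with cKO above, as for 16.2% of all genes tested. The Krt80 difference was 0.29 ± 0.23 (limma adjusted p = 0.959). It lay at 0.13 without control replicate 1 and at 0.46 without control replicate 2. Keratinocyte proline-rich protein (Kprp) measured 7.34 and 32.9 in control, against 11.7 and 51.7 in cKO. It had the order of libraries seen for Lce1, with ratios of 1.60 and 1.57 between genotypes within the numbers, and its gene lies between Lce1k and Lce1l. Its log2 difference of 0.62 ± 0.87 turned to -0.39 with control replicate 1 left out and to -0.40 with cKO replicate 2 left out, and was 1.63 without control replicate 2 and 1.65 when cKO replicate 1 was dropped.

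The crosslinking enzymes lay higher in cKO within both numbers, as did 31.8% of all genes tested, with Tgm3 the clearest member. Transglutaminase 3 (Tgm3, chromosome 2, 130012349 to 130050399), a cytosolic enzyme that crosslinks loricrin and small proline-rich proteins, measured 49.9 and 47.9 FPKM in control, against 112 and 123 in cKO. This is 48.9 ± 1.41 against 118 ± 8.46 (SD, n = 2 each), a gap between groups larger than the spread in either. The ratio was 2.24 within number 1 and 2.58 within number 2. The log2 difference of 1.25 ± 0.21 had an unadjusted p of 0.00127 and did not pass after adjustment over all genes (limma adjusted p = 0.959). It stayed between 1.17 and 1.32 when any 1 library was left out. Tgm3 has 13 exons and a transcript of 4135 nt, unlike Lce1. Transglutaminase 1 (Tgm1), the membrane-anchored enzyme that also attaches lipids to the envelope, measured 72.9 and 43.6 in control, against 97.4 and 71.6 in cKO. Control 1 lay just above cKO 2, so the groups overlapped (0.56 ± 0.32, adjusted p = 0.959). The difference was 0.92 without control replicate 1, 0.19 without control replicate 2 and 0.34 when cKO replicate 1 was dropped. Transglutaminase 5 (Tgm5), which acts in the upper layers, measured 27.4 and 19.8 in control, against 33.1 and 29.0 in cKO (0.40 ± 0.24, adjusted p = 0.959). Its difference was 0.62 without control replicate 1 and 0.17 without control replicate 2. For Tgm5, a transcript with a retained intron was listed at 2.37 and 1.35 in control, against 1.04 and 0.28 in cKO, while its coding transcript was listed at 25.0 and 18.5 against 32.1 and 28.7.

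**Figure D2:**
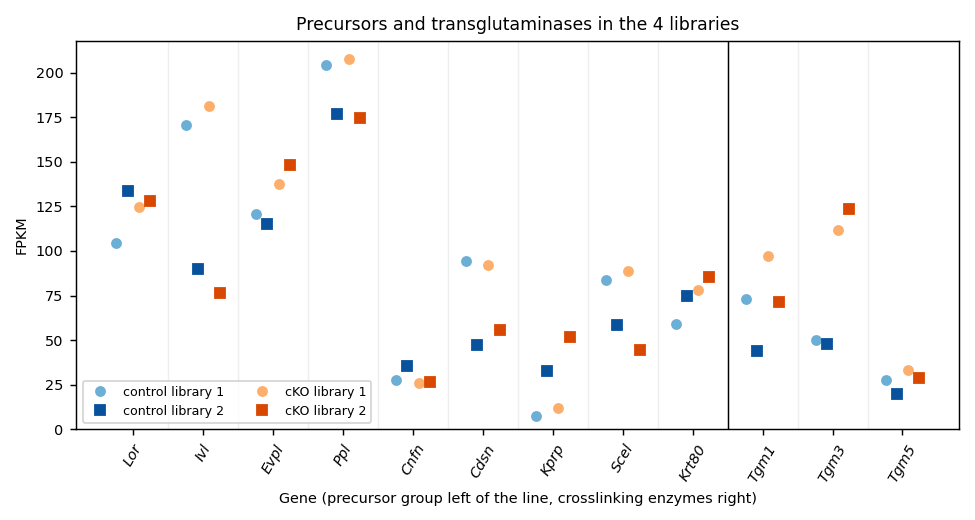
FPKM of the 9 precursor genes and 3 transglutaminase genes in each library, with the same colours and shapes as for Lce1. Both cKO points lie above both control points for Evpl, Krt80, Tgm3 and Tgm5, and below both for Cnfn. Of all genes tested, 16.2% lay above and 16.6% below in this way. Ivl, Cdsn and Scel separate by replicate number with the squares lower.

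Set against each other, the subgroups differed in which library pairs they separated. The Lce1 genes had differences of 0.36 to 1.13 within number 1 and 0.03 to 0.62 within number 2. The transglutaminases had the larger difference within number 2 in all 3 cases (0.27 to 1.14 within number 1 and 0.53 to 1.35 within number 2). By replicate number the median was -0.32 for the transglutaminases and 0.02 for the precursors, against 1.78 for Lce1. No test of the difference between subgroups was made, because their members share the same 4 libraries.

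**Figure D3:**
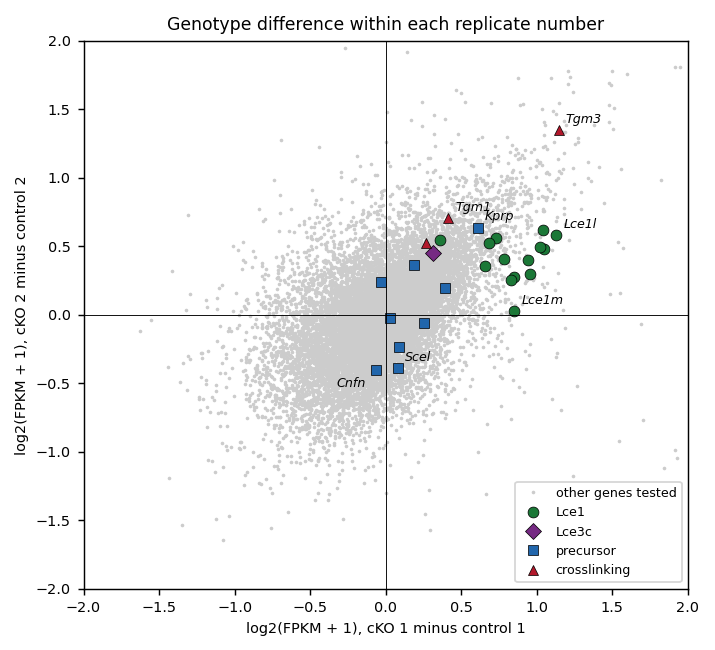
Difference in log2(FPKM + 1) between cKO and control within replicate number 1 (x axis) and number 2 (y axis) for the 27 tested members in colour and all other tested genes in grey, with axes limited to 2 in either direction. The Lce1 genes lie to the right (0.36 to 1.13) with lower values on the y axis (0.03 to 0.62), Tgm3 lies at 1.14 and 1.35, and most precursors lie near the centre.

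Position within the epidermal differentiation complex went along with these values. Over the 397 kb from the start of Lce6a to that of Lce1m, 19 genes of the lists passed the minimum level, 16 of them members. All 19 were higher in cKO within both numbers, against 31.8% of all genes tested, with log2 differences of 0.38 to 0.85. All 19 were also higher in the libraries numbered 2, by 1.14 to 2.14. The 3 that are no members were Lce6a, Crct1 and 2310050C09Rik. Crct1, a small cysteine-rich gene next to Lce1m, measured 30.8 and 112 FPKM in control, against 59.8 and 170 in cKO. Lce6a measured 23.3 and 86.1 in control, against 41.7 and 113 in cKO. The other 16 listed genes of the complex that were mapped ranged from -1.12 to 1.58 by number and from -0.43 to 2.02 by genotype. Ivl, the nearest member before this stretch, had -1.07 by number and -0.07 by genotype. The bounds of the stretch were set after the values were seen. Most of its genes have 2 exons and short transcripts, so for the genotype difference position and structure cannot be told apart. By number, the 56 genes of like structure outside the listed complex genes ranged from -0.99 to 0.92, below all 19. The part of position in either difference was not tested.

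**Figure D4:**
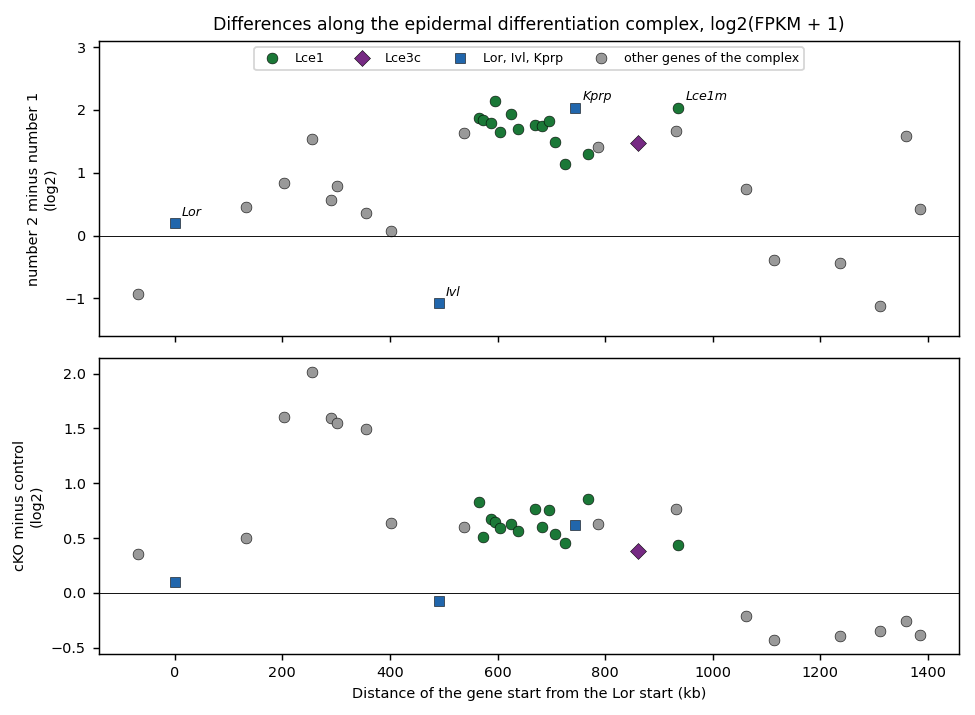
Differences in log2(FPKM + 1) for 35 genes of the epidermal differentiation complex by distance of their start from the Lor start, with replicate number 2 minus number 1 above and cKO minus control below. The Lce1 genes, Lce3c and Kprp form a block above 1 in the upper panel and between 0.38 and 0.85 in the lower one, while Lor and Ivl lie near 0 in the lower panel.

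Other genes of the pathway were read from lists. Of 30 other listed genes of the complex, 19 were tested, 0 passed limma's adjusted test, and 6 had an unadjusted p under 0.05, all small proline-rich genes higher in cKO (Sprr1a, Sprr1b, Sprr2a3, Sprr2d, Sprr2g and Sprr2h, named after their values were seen). At that unadjusted threshold 3.29% of all genes tested were higher and 1.68% lower. Within both numbers 9 of the 19 were higher and 6 lower, against 31.8% and 37.6% of all genes tested, with a median of 0.50. The 3 most abundant were Flg, the filaggrin precursor (4128 and 2455 FPKM in control, 3187 and 1822 in cKO), its relative Flg2 (597 and 368 against 358 and 337) and the small proline-rich precursor Sprr1a (95.0 and 108 against 159 and 157). Sprr1b, another of these precursors, measured 39.1 and 41.4 against 91.8 and 144. Flg was lower in the libraries numbered 2, as Ivl was. Of 5 other transglutaminase genes 2 were tested and 0 passed (0 at an unadjusted p under 0.05), and the highest, Tgm2, measured 0.75 and 1.03 in control, against 1.04 and 1.5 in cKO. Tgm6 measured 0.69 and 1.48 against 0.77 and 1.36, and F13a1, the coagulation factor XIII subunit, stayed under 1 FPKM in every library. The transglutaminase RNA of these libraries was thus mainly that of Tgm1, Tgm3 and Tgm5.

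All 20 listed regulators of envelope genes were tested. None passed the adjusted test. At an unadjusted limma p under 0.05 there were 2, both higher, against 3.29% of all genes tested higher and 1.68% lower. Within both numbers 10 were higher and 6 lower, against 31.8% and 37.6% of all genes tested, with a median of 0.13. Klf4, a zinc finger factor needed for the skin barrier, measured 109 and 136 FPKM in control, against 185 and 172 in cKO (0.54 ± 0.25, limma adjusted p = 0.959). Grhl1, a grainyhead-like factor, measured 122 and 113 against 145 and 123, and Cebpa 77.2 and 106 against 99.5 and 129. The pair with an unadjusted p under 0.05 was Zfp750 (77.1 and 78.9 against 123 and 114) and Ovol1 (37.8 and 34.0 against 53.4 and 55.0), both transcription factors of late differentiation. Of 15 other envelope and envelope lipid genes 0 passed (0 at an unadjusted p under 0.05). Within both numbers 8 were higher and 1 lower, against the same 31.8% and 37.6%, with a median of 0.17. Desmoplakin (Dsp) measured 738 and 682 in control, against 810 and 660 in cKO, annexin A1 (Anxa1) 579 and 689 against 648 and 513, and plakophilin 1 (Pkp1) 424 and 585 against 475 and 551. Their differences were within the spread between libraries.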

How the data were processed

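Keratinocyte RNA was sequenced in 4 libraries. Per the labels' protocols, libraries were made from total RNA with a NEBNext Ultra RNA kit after either poly(A) selection or ribosomal RNA removal, without saying which, and strand is not stated. The submitters' processing notes name fastp, HISAT2, HTSeq and GRCm38, with no roles or versions. The deposited table gives 110295 transcripts with no unit. The authors' values were taken as FPKM because value times transcript length in kb, over the 98.0% of transcripts in GENCODE M21 (GRCm38), summed to nearly the same total in every library (1015550 to 1021998). FPKM and RPKM cannot be told apart. In 162 rows a symbol had become a date and was restored by transcript ID.

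Transcripts were summed per symbol. Genes that reached 1 FPKM in 2 or more libraries were tested on log2(FPKM + 1) with limma's moderated test, fitting genotype alone with a trended prior variance (2 residual degrees of freedom), with Benjamini-Hochberg adjustment at 0.05. Depth came from low values of single-transcript symbols with 300 to 1000 nt, as the lowest number of reads at which these values came close to whole, and 94.3% to 95.1% were whole reads within 0.2 reads; implied reads cover counting error only. The script was tested on simulated data. All 32 members are described, with the 3 most abundant genes of each accompanying list and any past the threshold. Genes named beyond that were chosen after their values were seen. The members and lists were chosen with earlier results of these data known. Alternatives were a pseudocount of 0.1, other filters, scalings and transcript choices, limma without a trend, limma-voom, a replicate block and leaving out each library. Replicate numbers do not pair samples by any label. Tests ran in R 4.3.3 with limma 3.58.1, and tables in Python 3.11.15 with pandas 2.3.3.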

Additional observations from a re-analysis of the deposited data

How the results depend on the processing

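With 2 libraries a group, a fit without 1 library leaves a lone library that is assumed to vary like the other group. It also sets the replicate number of that library against both numbers, so a difference between numbers enters the result. Leaving out each library in turn gave 7 to 52 genes called and 0 to 7 members called, all 7 without control replicate 2, where 25 of 13503 genes were called higher (0.185%) and 12 lower (0.0889%). The median difference ranged from -0.3364 to 1.651 for Lce1, from -0.1233 to 0.2202 for precursors and from 0.1932 to 0.9215 for crosslinking genes. For Lce3 it was that of Lce3c alone, the only Lce3 gene tested (-0.3878 to 1.146). The direction turned in at least 1 of these fits for Lce1a1 (-0.213 to 1.872), Lce1a2 (-0.3646 to 1.703), Lce1b (-0.4906 to 1.503), Lce1c (-0.4666 to 1.757), Lce1d (-0.3233 to 1.511), Lce1e (-0.5046 to 1.759), Lce1f (-0.4323 to 1.555), Lce1g (-0.2543 to 1.782), Lce1h (-0.3094 to 1.516), Lce1i (-0.2851 to 1.802), Lce1j (-0.3494 to 1.43), Lce1k (-0.1642 to 1.067), Lce1m (-0.7857 to 1.66), Lce3c (-0.3878 to 1.146), Lor (-0.07815 to 0.2719), Ivl (-0.6911 to 0.5437), Ppl (-0.1233 to 0.1287), Cdsn (-0.3901 to 0.5963), Kprp (-0.4013 to 1.647), Scel (-0.6461 to 0.3345). It held in all of them for Lce1l, Evpl, Cnfn, Krt80, Tgm1, Tgm3 and Tgm5.

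With the replicate number as a block, 900 genes were called, 626 higher (4.53%) and 274 lower (1.98%), and 12 members, all higher: Lce1a1, Lce1a2, Lce1b, Lce1c, Lce1d, Lce1g, Lce1h, Lce1i, Lce1l, Kprp, Tgm1 and Tgm3 (limma adjusted p from 0.0024 to 0.04353). Same-numbered libraries deviated together over genes (r = 0.722 over 13817 genes), but the labels do not say what the number marks. Under the other alternatives 0 genes and 0 members were called and the 27 tested members kept their direction, except that Ppl lay at -0.0542 with equal column sums. The median of all differences was -0.034 as deposited, -0.0014 with median-ratio scaling and -0.084 with equal column sums. Depth limits the 5 untested Lce3 genes, which rest on at most 24.0 implied reads.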
